A study of Mus musculus with 167 samples.

Results

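The 32 mitotic genes described here were taken by symbol from a fixed list, not by their values, and all 32 were found among the 57010 gene identifiers of the count table. They encode the cyclins and Cdk1, the Polo and Aurora kinases with survivin (Birc5), the spindle checkpoint and the anaphase-promoting complex, the centromere and kinetochore, the spindle and its motors, and the machinery of cytokinesis. RNA was sequenced from samples in 41 groups of 3 to 5 libraries, each from 5000 sorted cells per extraction. The question put to these genes was when, and in which sorted cells, their RNA falls during the conversion of mouse embryonic fibroblasts (MEFs) by dendritic cell transcription factors, set beside dendritic cells of the spleen.

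The C9a.MEF line was homozygous for Cre in the Clec9a locus and for tdTomato in Rosa26, so tdTomato marks cells in which that locus has been active. It received lentivirus for Spi1 (PU.1), Irf8 and Batf3 (PIB), for Spi1, Irf4 and Prdm1 (PIP), or for Spib, Irf8 and Ikzf2 (C9a.SII). The hCD2.MEF line was heterozygous for hCD2 Cre and for YFP in Rosa26, on a C57BL/6 background, and received SII (hCD2.SII). Live cells were sorted 3, 6 or 9 days after transduction for the reporter, for the leukocyte antigen CD45, or for both (double positive). The reporter gate was taken to hold double positive cells too, so gates compared below may share kinds of cell. Controls were untransduced MEFs of each line, sorted as negative for reporter and CD45 (n = 4 each), and 3 wildtype subsets from spleen, the conventional subsets cDC1 and cDC2 (n = 3 each) and the plasmacytoid subset pDC (n = 5). No day is given for the untransduced MEFs, and no group received virus without the factors. Time in culture, transduction and the factors thus cannot be told apart in a difference from MEFs. The labels give animal age for no group, and they do not say whether libraries of a group came from separate cultures or animals. The p-values therefore measure the spread between these libraries, which may be technical.

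Most mitotic genes are silent for much of the cell cycle and are transcribed together late in it, in G2 and M phase. Cyclin B and Cdk1 start mitosis, checkpoint kinases hold it until every chromosome is attached, and the anaphase-promoting complex then destroys cyclin B and lets the cell divide. Cells that stop cycling hold little RNA of these genes. In bulk RNA, fewer cycling cells and less RNA per cell cannot be told apart. The best known promoter elements of the family are the CHR, bound by the DREAM and MuvB complexes, and the CCAAT box, bound by NF-Y.

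RefSeq promoter windows (build GRCm38.p6, from 250 bases before to 50 after the start) were held for 27 of the 32 genes, in 29 windows. Ccna2, Kif20a, Tpx2, Cdc25c and Aurkb were not matched. A CHR core, spelled TTTGAA or TTTAAA on either strand, lay in 26 of the 29 windows (89.7%), against 27.6% of all 32851 windows of the table. A CCAAT box, read as CCAAT on one strand or ATTGG on the other, lay in 23 (79.3%), against 37.4%. Both motifs lay in 22 (75.9%), against 10.7%. An E2F core, spelled GCGCGAA or GCGGGAA on either strand, lay in 2 (6.90%), against 6.00%. These are matches of letters in a fixed window and no evidence of binding. The windows of Ccnb1, Ccnb2, Plk1 and Mki67, which fell in all 4 kinds of day 6 cell, of Cdk1, whose decrease was smaller, and of Cenpa, which rose in PIP cells, are printed from 220 bases before to 30 after the start, 5′ to 3′ on the gene's strand, with CHR and CCAAT matches in capitals.
Ccnb1, chr13:100786457-100786706, minus strand: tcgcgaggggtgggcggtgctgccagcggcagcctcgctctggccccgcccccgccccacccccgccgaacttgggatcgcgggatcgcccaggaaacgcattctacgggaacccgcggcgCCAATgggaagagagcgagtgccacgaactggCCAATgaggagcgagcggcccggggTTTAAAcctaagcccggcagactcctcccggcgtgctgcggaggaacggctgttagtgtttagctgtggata
Ccnb2, chr9:70421525-70421774, minus strand: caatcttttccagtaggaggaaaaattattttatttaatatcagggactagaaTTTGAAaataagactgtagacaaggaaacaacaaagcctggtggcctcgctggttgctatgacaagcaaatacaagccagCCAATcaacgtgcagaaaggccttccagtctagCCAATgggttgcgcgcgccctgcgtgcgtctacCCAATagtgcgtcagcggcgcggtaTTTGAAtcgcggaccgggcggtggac
Plk1, chr7:122159215-122159464, plus strand: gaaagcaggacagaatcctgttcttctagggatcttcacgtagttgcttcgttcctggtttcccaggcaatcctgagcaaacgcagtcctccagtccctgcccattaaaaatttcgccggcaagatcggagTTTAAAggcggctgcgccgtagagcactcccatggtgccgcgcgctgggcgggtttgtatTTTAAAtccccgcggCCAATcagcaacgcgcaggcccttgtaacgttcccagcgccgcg
Cdk1, chr10:69352883-69353132, minus strand: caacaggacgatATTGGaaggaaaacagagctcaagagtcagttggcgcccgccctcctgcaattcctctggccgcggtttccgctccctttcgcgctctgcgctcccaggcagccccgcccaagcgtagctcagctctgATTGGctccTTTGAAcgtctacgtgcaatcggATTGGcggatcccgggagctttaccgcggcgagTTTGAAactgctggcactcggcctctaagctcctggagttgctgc
Mki67, chr7:135716350-135716599, minus strand: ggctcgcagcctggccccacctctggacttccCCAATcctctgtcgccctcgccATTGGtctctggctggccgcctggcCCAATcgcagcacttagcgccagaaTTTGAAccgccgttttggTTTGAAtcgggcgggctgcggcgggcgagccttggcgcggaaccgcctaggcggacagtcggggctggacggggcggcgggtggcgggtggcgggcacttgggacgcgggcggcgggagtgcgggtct
Cenpa, chr5:30666666-30666915, plus strand: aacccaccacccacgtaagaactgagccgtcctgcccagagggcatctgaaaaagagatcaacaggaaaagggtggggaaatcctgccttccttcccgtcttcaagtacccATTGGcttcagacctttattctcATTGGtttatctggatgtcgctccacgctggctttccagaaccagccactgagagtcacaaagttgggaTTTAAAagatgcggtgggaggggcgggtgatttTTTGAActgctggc
The Ccnb2 window held 3 CCAAT boxes beginning 87, 54 and 21 bases before the start, and the Ccnb1 window a CHR core 42 bases before it. The Cenpa window held both kinds of match, as the others did.

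The libraries held 1146927 to 21976374 counts (median 10960122), and 3 counts, the floor used for a gene not seen, were worth 0.137 to 2.62 CPM (counts per 1000000 of the library total). Levels of single libraries are in CPM, and log2 fold changes are given with standard errors from edgeR's quasi-likelihood test. A gene rose or fell where the Benjamini-Hochberg adjusted p over all genes tested was under 0.05 and the change at least 2-fold. In 3 reporter-gated libraries the transduced factors went against the label: PIB day 6 replicate 4 and C9a.SII day 6 replicate 5 held 639 and 773 CPM of Prdm1, which is in PIP alone, and PIP day 3 replicate 5 held 523 CPM of Ikzf2, which is in SII alone. The last of these enters 1 comparison below. The fibroblast label of both MEF lines was borne out by 7 fibroblast markers, and leukocyte markers were near 0 there, at 2.37 to 4.32 CPM summed over 6 genes.

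By day 9, levels in double positive cells were far below those of untransduced fibroblasts for nearly every mitotic gene. In PIB cells 31 of 32 fell and none rose, with a median log2 fold change of -3.55, where 11.4% of all genes tested were called lower. In PIP cells 30 fell and 1 rose (median -3.02), where 14.5% of all genes were called lower and 15.2% higher. In C9a.SII cells 29 fell (median -2.22, 11.1% of all genes lower). In hCD2.SII cells 30 fell (median -2.94, 8.42% of all genes lower), a count that was 16 when no filter on low counts was used. Of its 3 libraries, replicate 1 stood apart, with a mean log2 CPM of the 32 genes of 2.87 against 0.35 and 0.73 and fibroblast markers at 6592 CPM against 610 and 550, and without it 31 fell with a median of -4.71. The PIB, PIP and C9a.SII comparisons share the same 4 C9a.MEF libraries. The median over all genes tested was close to 0 in each.

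Mki67, whose protein coats mitotic chromosomes and is the standard marker of cycling cells, lay at 158.7, 164.2, 120.1 and 170.7 CPM in the C9a.MEF libraries. It was 5.41, 5.49, 9.40, 7.73 and 9.36 CPM in the PIB day 9 libraries (-4.30 ± 0.16, adjusted p = 3.62e-09) and 7.46, 8.26, 5.12 and 7.85 in the PIP day 9 libraries (-4.18 ± 0.15, adjusted p = 1.06e-09). Every one of these PIB and PIP libraries was below every fibroblast library. In C9a.SII day 9 cells it was 187, 27.7, 24.7 and 24.3 CPM. The high value is from replicate 1, which had the fewest counts of all libraries, 1146927, and whether depth had a part in it was not tested. With that library the change was not called (-1.12 ± 0.89, adjusted p = 0.346), and without it Mki67 fell by 2.57 on the log2 scale. Kif23, the motor of the central spindle, behaved alike in these libraries, at 38.4, 3.24, 5.14 and 6.43 CPM.

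**Figure D1:**
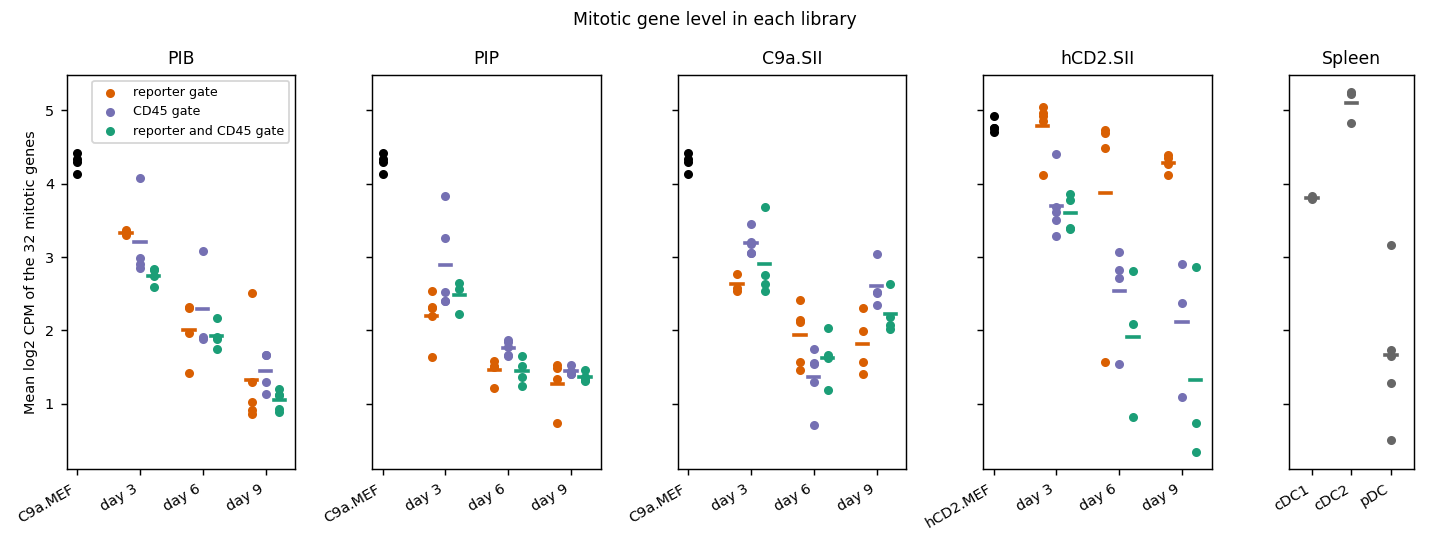
Mean log2 CPM (prior count 2) of the 32 mitotic genes, on the vertical axis, in each library (points), with group means as bars, by cocktail, day and sort gate; black points are untransduced fibroblasts of the line and grey points splenic cells. Double positive cells fall from means of 2.75 (PIB), 2.48 (PIP), 2.91 (C9a.SII) and 3.60 (hCD2.SII) on day 3 to 1.05, 1.36, 2.22 and 1.32 on day 9. Those of C9a.SII were lower on day 6, at 1.63, than on day 9. The CD45 gate of C9a.SII likewise had means of 1.37 on day 6 and 2.60 on day 9. In PIB, PIP and hCD2.SII that gate went from 2.29, 1.76 and 2.54 on day 6 to 1.44, 1.45 and 2.12 on day 9. These changes of the CD45 gate were not tested. The hCD2.SII reporter gate holds group means of 4.78, 3.87 and 4.28 on days 3, 6 and 9, with 1 day 6 library at 1.56.

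Among the genes that start mitosis, Ccnb1, which encodes cyclin B1, lay at 12.9, 16.2, 13.8 and 13.4 CPM in C9a.MEF and at 0.796, 1.37, 0.518, 0.687 and 0.557 CPM in PIB day 9 cells. Its mean level was 5.59% of that of the fibroblasts in PIB cells, 6.85% in PIP cells, 23.7% in C9a.SII cells and 9.02% in hCD2.SII cells. Cdk1, the kinase it activates, kept more of its RNA. Cdk1 was at 19.6, 19.4, 15.7 and 20.7 CPM in C9a.MEF, and 9.00, 9.10, 10.4, 9.02 and 8.25 CPM in PIB day 9 cells. The PIB libraries lay below all fibroblast libraries, but the difference was just under 2-fold (-0.98 ± 0.11, adjusted p = 3.83e-06), as it was for PIP (-0.95 ± 0.12, adjusted p = 1.6e-06), and leaving out C9a.MEF replicate 3 put it just over 2-fold in both (-1.05 and -1.03). Cdk1 fell in C9a.SII (-1.38 ± 0.17) and in hCD2.SII (-2.63 ± 0.47, and -3.72 without replicate 1) day 9 cells. Cdk1 was the one gene of the 32 that was not called in PIB or in PIP day 9 cells.

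The mitotic kinases fell in all 4 kinds of day 9 cell. Plk1, the Polo kinase, was 13.4, 14.9, 14.7 and 19.2 CPM in C9a.MEF and 0.637, 0.944, 0.888, 1.12 and 1.23 in PIB day 9 cells. Aurkb, the kinase that corrects chromosome attachment, moved less, from 9.76, 11.9, 7.26 and 10.0 CPM to 2.47, 2.40, 2.00, 2.41 and 1.56 CPM (-2.08 ± 0.19 in PIB). Neither gene's groups overlapped. Of the spindle checkpoint, Bub1 went from 9.12, 9.82, 7.08 and 11.4 CPM to between 0.223 and 0.876 CPM in PIB day 9 cells. The lowest of these lay under the floor of its library, replicate 5, which was 0.334 CPM. Bub1b showed the largest decrease of C9a.SII day 9 cells (-2.88 ± 0.14, adjusted p = 6.15e-08). Ube2c, the ubiquitin-conjugating enzyme of the anaphase-promoting complex, was not called in hCD2.SII day 9 cells (-2.97 ± 0.97, adjusted p = 0.0519), although its libraries lay below all fibroblast libraries, and was called without replicate 1.

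At the kinetochore, Cenpf gave the largest decrease in PIB day 9 cells (-4.55 ± 0.16, adjusted p = 6.32e-11) and Nuf2, of the complex that grips microtubules, the largest in PIP (-4.22 ± 0.17, adjusted p = 6.66e-13) and hCD2.SII cells (-3.84 ± 0.58, adjusted p = 0.00266, and -5.82 without hCD2.SII replicate 1). Cenpf was 42.4, 40.4, 30.6 and 43.3 CPM in C9a.MEF and 1.12 to 1.99 CPM in PIB day 9 cells. Of the chromosome and spindle genes, Top2a, which untangles replicated DNA, was 85.9, 88.2, 76.8 and 96.1 CPM in C9a.MEF. It was 7.40, 5.32, 7.26, 6.87 and 5.57 CPM in PIB, 9.00, 7.80, 6.65 and 7.30 in PIP, and 18.3, 16.3, 18.9 and 18.2 in C9a.SII day 9 cells. All C9a.SII libraries, replicate 1 included, lay above all PIB and PIP libraries. Kif11, the motor that pushes spindle poles apart, was 23.63, 23.03, 19.67 and 27.53 CPM in C9a.MEF and 0.945 to 1.78 CPM in PIB day 9 cells. For the 5 midzone and cytokinesis genes (Kif20a, Kif23, Prc1, Ect2, Anln) the mean level in PIB day 9 cells was 7.74 to 14.9% of that of the fibroblasts.

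**Figure D2:**
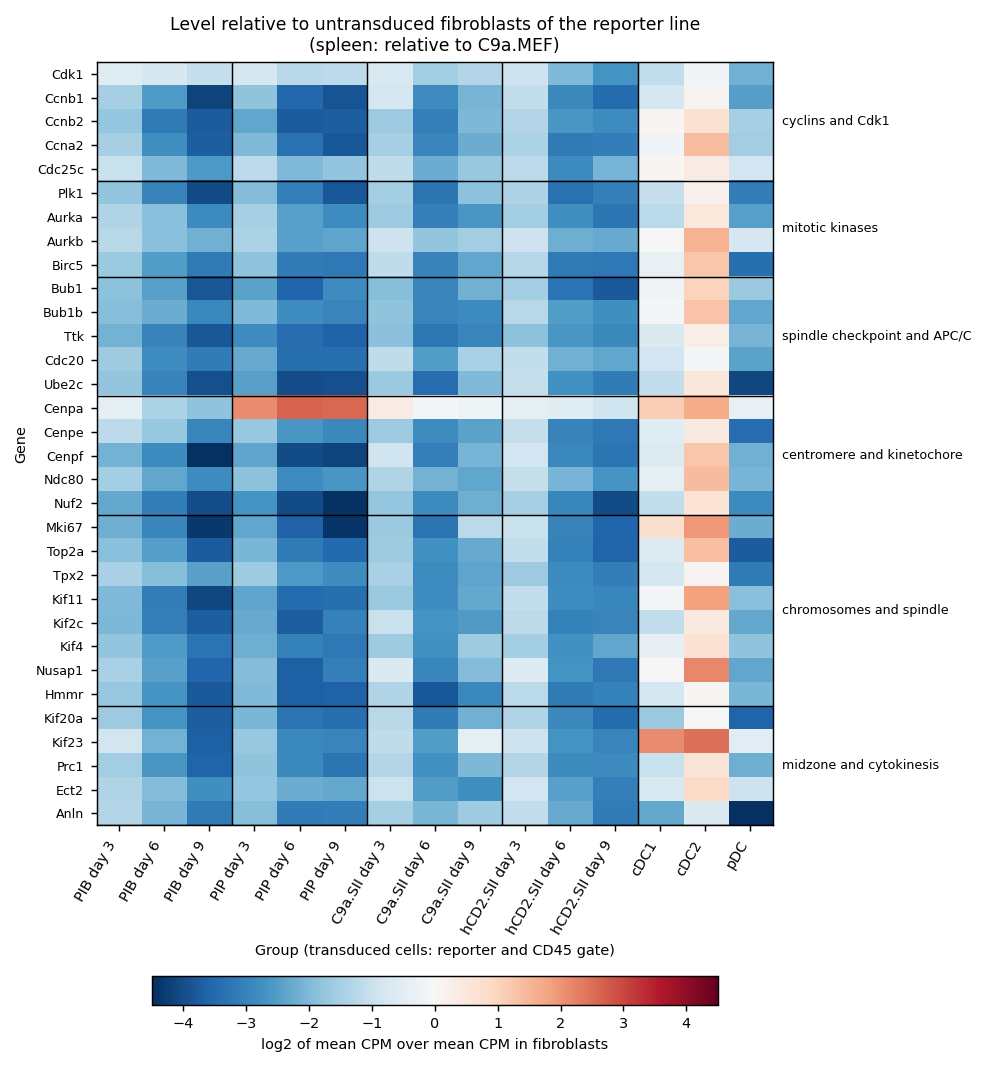
Each mitotic gene (rows, grouped by role) in double positive cells by cocktail and day and in splenic cells (columns), as the log2 of mean CPM over mean CPM in untransduced fibroblasts, blue for lower and red for higher. Cenpa is red in the 3 PIP columns, where its mean was 442 to 630% of that of the fibroblasts, and the cDC2 column is mostly red.

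Many other cell cycle genes were also lower. Of 67 other mitotic genes listed for comparison, 66 were tested, and at day 9 43 fell in PIB, 43 in PIP, 36 in C9a.SII and 40 in hCD2.SII cells, where 11.4, 14.5, 11.1 and 8.42% of all genes were called lower. The one that rose, in both SII groups, was the kinesin gene Kif18a (1.44 ± 0.29 in C9a.SII and 1.09 ± 0.33 in hCD2.SII), named here after its values were seen. Of 20 S phase genes, for DNA replication, 15, 16, 15 and 17 fell in these groups, against the same shares of all genes. Foxm1 and Mybl2, transcription factors that act on mitotic promoters, fell in PIB cells by 2.60 and 2.82 on the log2 scale, while E2f1, which acts earlier in the cycle, was within 2-fold (0.42 ± 0.09, adjusted p = 0.00121).

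The decrease was already present on day 3. In PIB cells 26 of 32 genes had fallen (median -1.37, 10.9% of all genes called lower), in PIP cells 30 with 1 risen (median -1.83, 11.1% lower and 10.6% higher), in C9a.SII cells 23 (median -1.40, 8.71% lower) and in hCD2.SII cells 24 (median -1.08, 13.3% lower). Mki67 was 34.19, 41.85, 22.995 and 34.24 CPM in the PIB libraries, 30.43, 30.99 and 28.65 in the PIP libraries, and 42.52, 85.05, 34.64 and 30.02 in the C9a.SII libraries. The libraries of PIB, PIP and C9a.SII thus lay below all of C9a.MEF. C9a.SII replicate 2, the highest, also had the lowest leukocyte and fibroblast marker sums of its group (leukocyte 198 CPM, against 398 to 883, and fibroblast 1357 CPM, against 2128 to 3662), and without it 31 genes were lower there. Whether the sorted cells differed in that library was not tested. Ttk, a kinase of the spindle checkpoint, gave the largest decrease in PIP, C9a.SII and hCD2.SII day 3 cells (-2.71 ± 0.32, -1.86 ± 0.40 and -1.79 ± 0.17), and Nuf2 in PIB cells (-2.03 ± 0.13).

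On day 6, 31 genes were lower than in fibroblasts in each of PIB (median -2.44, 12.2% of all genes lower), PIP (-2.97, 13.8% lower), C9a.SII (-2.81, 11.9% lower) and hCD2.SII cells (-2.74, 11.7% lower). The exception was Cdk1 in PIB, and Cenpa in the other 3, where it rose in PIP (12.9% of all genes higher). Mki67 was 22.7, 16.2, 25.2 and 16.9 CPM in PIB and 11.3, 9.58, 14.6 and 13.5 CPM in PIP cells.

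Direct tests between days asked when the RNA went down. In PIB cells 14 of 32 genes fell from day 3 to day 6 (median -1.004, 6.32% of all genes lower), among them Ccnb2 (-1.61 ± 0.28) and Kif23 (-1.49 ± 0.14), and 27 had all day 6 libraries below all day 3 libraries (14.9% of all genes did). From day 6 to day 9 another 10 of 30 tested fell in PIB cells (median -1.003, 0.206% of all genes lower), Cenpf the most (-1.78 ± 0.22). Ccnb1 did not overlap between these days, at 1.90 to 2.82 CPM on day 6 and 0.518 to 1.37 on day 9. The count for this step was 4 to 18 with any 1 library left out, 6 and 4 without day 6 replicates 2 and 3 and 18 without day 9 replicate 5, and 0 in 1 fit over all 41 groups, which gave 3 for the earlier step.

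In PIP cells the change from day 3 to day 6 passed the test for 3 of 31 genes, Mki67, Kif20a and Anln (median of all -1.08, 0.217% of all genes lower), with 23 genes not overlapping (6.96% of all genes did not). That count was 0 without replicate 1 or 2 of either day, 1 without day 6 replicate 3, 6 without day 6 replicate 4, and 15 by DESeq2. From day 6 to day 9 the PIP cells had none called (median -0.03, 0.241% of all genes lower), 1 gene at an unadjusted p under 0.05, and 0 by DESeq2. In C9a.SII cells none of 30 genes was called from day 3 to day 6 (0% of all genes lower), although the median was -1.39, 29 had an unadjusted p under 0.05 and DESeq2 called 15. From day 6 to day 9 none was called either (0% of all genes), with a median of 0.63, 5 genes at an unadjusted p under 0.05 and none by DESeq2. In hCD2.SII cells 11 of 32 fell from day 3 to day 6 (median -1.61, 1.12% of all genes lower), Top2a the most (-1.97 ± 0.39). This count was 23 without day 6 replicate 1, 0 without day 3 replicate 3 or 4 or day 6 replicate 2, 6 and 2 without day 3 replicates 1 and 2, and 26 by DESeq2. No gene was called from day 6 to day 9 in hCD2.SII cells (median -0.25, 0% of all genes, none at an unadjusted p under 0.05 and none by DESeq2).

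Cenpa, the histone variant that marks centromeres, went the other way in PIP cells. It was 12.1, 9.82, 9.28 and 11.1 CPM in C9a.MEF, 56.8, 56.2 and 27.3 CPM in PIP day 3 cells, 79.41, 76.96, 78.04 and 32.50 on day 6, and 62.8, 60.7, 68.2 and 64.7 on day 9. All PIP libraries lay above all fibroblast libraries, and the rise was called on each day (2.28 ± 0.29, adjusted p = 5.01e-04 on day 3, 2.84 ± 0.32, adjusted p = 1.02e-04 on day 6, and 2.82 ± 0.09, adjusted p = 2.09e-14 on day 9). The low libraries of days 3 and 6 also held more fibroblast marker counts (3947 and 4050 CPM over 7 genes, against 1165 to 2363 in the others) and without them the rises were 2.55 and 3.08. In PIB day 9 cells Cenpa was 3.98, 3.00, 1.85, 3.61 and 2.79 CPM and had fallen (-1.73 ± 0.20, adjusted p = 5.78e-06). In C9a.SII day 9 cells it was 9.59, 9.40, 7.62 and 10.1 CPM and was not called (-0.18 ± 0.15, adjusted p = 0.334). PIB and PIP cells differed directly by -4.53 ± 0.15 (adjusted p = 5.13e-11) at day 9.

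In the 3 libraries whose factors contradict the label, Cenpa was nearer to the level of the cocktail whose factors they held. It was 61.6 and 32.7 CPM in the libraries labelled PIB day 6 replicate 4 and C9a.SII day 6 replicate 5, and 8.11 CPM in that labelled PIP day 3 replicate 5. A low level also occurred with the factors of the label, in the CD45-gated PIP day 3 replicate 5, at 12.5 CPM. Cenpa lies on chromosome 5 from 30666777 to 30674830, plus strand (GENCODE M21, build GRCm38). The next protein-coding gene upstream, Slc35f6 (30647933 to 30659729, same strand, ending 7047 bases before Cenpa begins), encodes a solute carrier and was looked at after the Cenpa values were seen. It rose as well in PIP cells, from 22.90, 23.30, 23.99 and 23.44 CPM in C9a.MEF to 118.5, 122.6, 116.3 and 130.2 CPM on day 9 (2.61 ± 0.05, adjusted p = 1.19e-16), and less in PIB (1.25 ± 0.07) and C9a.SII day 9 cells (1.099 ± 0.115). In hCD2.SII day 9 double positive cells Slc35f6 was 38.29, 85.98 and 81.03 CPM (mean 68.43), against a mean of 19.98 CPM in hCD2.MEF. The mean level of Cenpa in those hCD2.SII cells was 53.71% of that of the fibroblasts, a decrease within 2-fold that was not called (-0.91). In PIB day 9 cells, where Cenpa had fallen, Slc35f6 rose, so there the 2 genes went opposite ways. The pipeline's strand setting is not given, and whether reads beyond the end of Slc35f6 reach Cenpa was not tested.

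**Figure D3:**
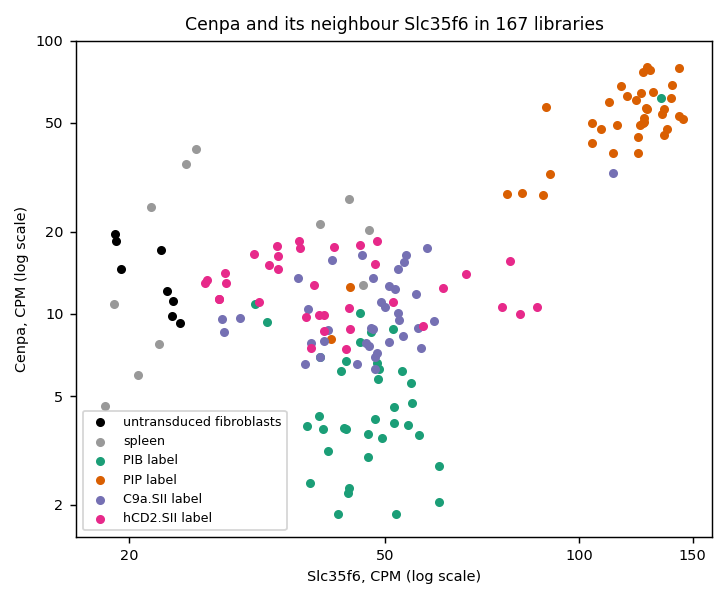
Cenpa (vertical) against its upstream neighbour Slc35f6 (horizontal), both in CPM on log scales, for each library of the series, coloured by their label. Libraries labelled PIP form the cloud at the upper right, joined by 1 labelled PIB and 1 labelled C9a.SII, and 2 labelled PIP lie among the others.

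Compared at matched days, the cocktails differed in few of the genes on day 3. PIB and PIP cells differed in Cenpa (-2.50 ± 0.41) and Kif23 (1.04 ± 0.15), 1 called lower and 1 higher of 32 where 6.05% and 5.39% of all genes were. PIB and C9a.SII cells had none called (5.65% of all genes lower), 3 genes at an unadjusted p under 0.05 and none by DESeq2. PIP and C9a.SII cells differed in Cenpa (1.85 ± 0.32) and Kif2c (-1.15 ± 0.33), where 6.53% and 4.92% of all genes were higher and lower, and leaving out any 1 library left only 1 of these calls.

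On day 9 C9a.SII cells held more RNA of many of these genes than PIB and PIP cells. In PIB cells 19 of 30 genes were lower than in C9a.SII cells (median -1.47, 10.1% of all genes lower), and 20 were without the shallow C9a.SII replicate 1 (median -1.23). Ccna2, for cyclin A2, was 2.73-fold lower (adjusted p = 0.00327). In PIP cells 13 of 30 were lower than in C9a.SII cells and Cenpa was higher (median -0.93, 11.5% and 10.9% of all genes lower and higher), and 11 were lower without that library. Without PIP replicate 2 or 3, 9 were called in all. PIB and PIP cells differed at day 9 in Cenpa alone of 29 tested (median -0.24, 11% of all genes lower).

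Between sort gates of SII cells no gene was called in the C9a line, and most were in the hCD2 line. In C9a.SII day 9 cells none of 30 genes differed between double positive and tdTomato-gated cells (median 0.45, 0.0321% of all genes lower), with none at an unadjusted p under 0.05 and none by DESeq2. In hCD2.SII day 9 cells 24 of 32 were lower in double positive than in YFP-gated cells (median -2.46, 4.13% of all genes lower), and for all 32 the libraries did not overlap (20.6% of all genes were that way). Mki67 was 129.7, 159.5, 153.6 and 137.4 CPM in the YFP gate and 39.5, 4.04 and 9.85 CPM in double positive cells (-2.98 ± 0.75, adjusted p = 0.0318). Cdk1 was 19.2, 21.2, 22.2 and 22.3 CPM against 8.27, 2.69 and 1.53 CPM. The count was 13 with no filter on low counts, 12 to 15 without any one YFP-gated library or double positive replicate 3, and 31 without double positive replicate 1, which was the highest of its group in both genes. Without that library the median was -4.05 and the Mki67 difference -4.46.

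The YFP-gated cells also carried the RNA of fibroblasts. At day 9 the fibroblast markers summed to 8397 to 9339 CPM and the leukocyte markers to 169 to 186 CPM in them, against 6592, 610 and 550 CPM and 491, 842 and 868 CPM in the 3 double positive libraries. The fibroblast level and the mitotic level thus stood apart together in double positive replicate 1, and what part cells with no or little conversion had in the gate difference was not tested. The transduced factor Ikzf2 was likewise 72.8 to 84.8 CPM in the YFP gate and at least 378 CPM in each double positive library. Against hCD2.MEF, none of the 32 genes was called in YFP-gated day 9 cells (1.4% of all genes lower). All 32 lay lower there, by a median of -0.50, with 32 at an unadjusted p under 0.05 and none called by DESeq2, and for 26 the libraries did not overlap (13% of all genes).

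On day 3, 22 of 32 genes were lower in hCD2.SII double positive than in YFP-gated cells (median -1.10, 5.76% of all genes lower), Ttk the most (-1.55 ± 0.20, adjusted p = 9.56e-04). In C9a.SII day 3 cells none was called (median 0.38, 0% of all genes lower), with 3 at an unadjusted p under 0.05 and none by DESeq2. The difference between the lines in the gate's effect was itself called for 19 genes on day 3 (median -1.54, 2.24% of all genes lower) and 18 on day 9 (median -2.72, 2.45% lower), all lower in the hCD2 line. The day 3 count was 0 without C9a.SII reporter-gated replicate 2 or 3, 5 without any one of hCD2.SII YFP-gated replicates 1 to 4, and 9 and 8 without hCD2.SII double positive replicates 3 and 4. The day 9 count was 29, 8 and 11 without hCD2.SII double positive replicates 1, 2 and 3, and the median was -4.24 without replicate 1. These 2 comparisons were chosen after the values were seen. The lines also differed in Cre driver, reporter and zygosity, so the gates were not the same and these parts cannot be told apart.

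**Figure D4:**
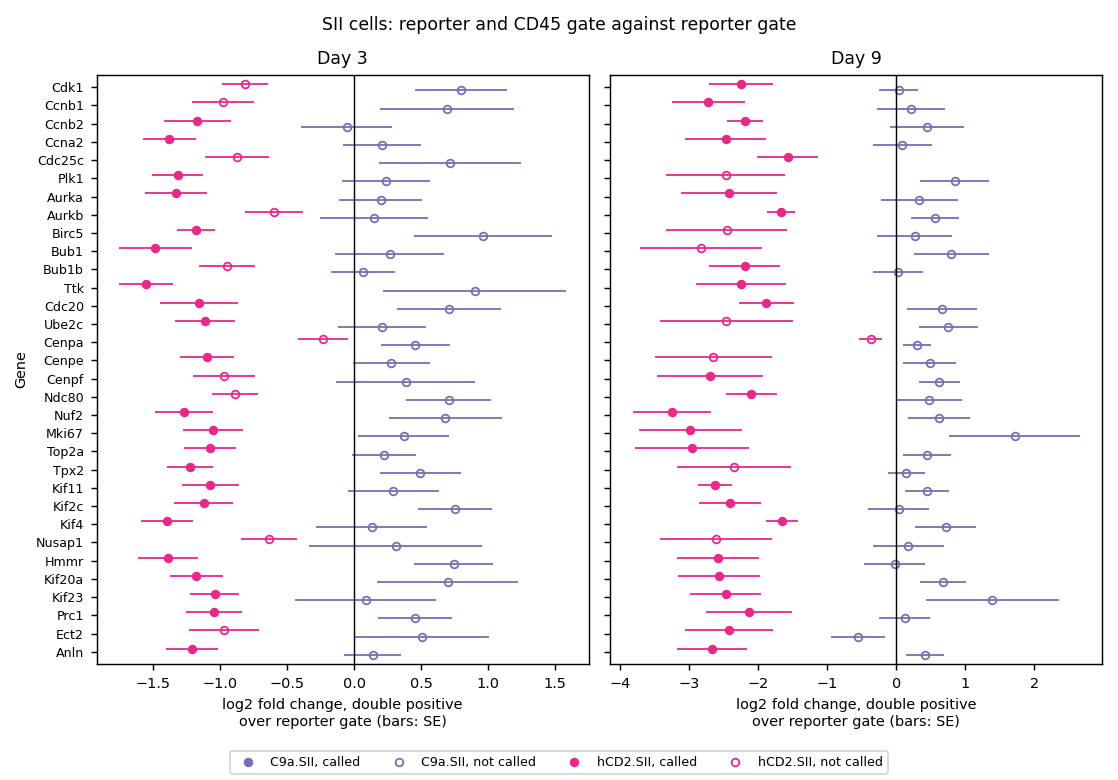
Log2 fold change of each mitotic gene in double positive over reporter-gated cells (horizontal, bars show SE) for SII in the C9a line (purple) and the hCD2 line (pink) on days 3 and 9, filled where called. The pink points lie left of 0 for all 32 genes on both days and no purple point is filled; genes that did not pass the low-count filter have no point.

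In PIB and PIP cells no gene was called between these gates. PIB day 3 double positive cells had none called against the tdTomato gate (median -0.49, 0.606% of all genes lower), but 20 genes did not overlap (12.7% of all genes), 23 had an unadjusted p under 0.05 and DESeq2 called none. PIP day 3 cells had none (median 0.28, 0.00631% of all genes lower), 2 at an unadjusted p under 0.05 and none by DESeq2, with a median of 0.20 without the reporter library whose factors are those of SII. On day 9, PIB cells had none of 28 (median -0.44, 0.762% of all genes lower, 3 at an unadjusted p under 0.05, 1 by DESeq2) and PIP cells none of 30 (median 0.06, 0% of all genes lower, 1 at an unadjusted p under 0.05, none by DESeq2). In the tdTomato gate on day 9 all 32 genes were lower than in fibroblasts in PIB (8.67% of all genes lower), 31 in PIP with Cenpa higher (13.2% lower and 15.8% higher) and 31 in C9a.SII cells (9.31% lower).

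The starting lines were not equal. None of the 32 genes was called between C9a.MEF and hCD2.MEF (1.43% of all genes lower), but all lay lower in C9a.MEF (median -0.51), 31 with an adjusted p under 0.05 but within 2-fold and 27 with no overlap (11.7% of all genes), while DESeq2 called none. Mki67 was 237, 180, 185 and 234 CPM in hCD2.MEF. Whether SII changed the genes unequally from these starting levels was tested directly, and none was called on day 3 (0.3% of all genes lower, 6 at an unadjusted p under 0.05, none by DESeq2) or day 9 (0.18%, 5 at an unadjusted p under 0.05, none by DESeq2). The day 9 count became 24, all lower in the hCD2 line, without hCD2.SII double positive replicate 1, and the median moved from -0.67 to -2.45.

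Splenic dendritic cells spanned the range from above fibroblasts to the level of reprogrammed cells. In cDC2 12 of 32 genes were higher than in C9a.MEF and none lower (median 0.56, 25.6% of all genes higher), led by Kif23 (2.42 ± 0.10) and Nusap1 (2.09 ± 0.10), a microtubule bundling protein. Mki67 was 687, 648 and 455 CPM in cDC2 and 283, 218 and 264 CPM in cDC1, where its difference from C9a.MEF was not called (0.45 ± 0.15, adjusted p = 0.0207). In cDC1 13 genes were lower than in C9a.MEF and Kif23 higher (median -0.88, 25.6% and 32% of all genes lower and higher). Kif23 was at 76.998, 78.02 and 78.84 CPM there, against 20.3, 17.9, 15.1 and 18.5 in C9a.MEF. In pDC 29 were lower (median -2.63, 23.9% of all genes lower). The cells also differ in tissue and handling from cultured fibroblasts, and these 3 comparisons were chosen after the values were seen.

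Between the splenic subsets, 20 of 32 genes were lower in cDC1 than in cDC2 (median -1.41, 10.7% of all genes lower), with Nusap1 first (-2.14 ± 0.16), and 29 were higher in cDC2 than in pDC (median 3.18, 11.7% of all genes higher), with Top2a first (5.21 ± 0.30, adjusted p = 1.61e-06). For cDC1 over pDC 16 of 31 were called higher (median 1.82, 7.88% of all genes higher). The pDC replicate 1 stood apart in this gene set, with Mki67 at 86.5 CPM against 27.6, 19.7, 16.2 and 12.9, and in its fibroblast markers, at 1160 CPM against 9.12 to 93.2. Without it 30 genes were higher in cDC1 than in pDC (median 2.54) and 32 in cDC2 (median 3.90), and 31 were lower in pDC than in C9a.MEF (median -3.22).

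Against the splenic subset that each cocktail is set beside, PIB day 9 cells were lower than cDC1 for 30 of 32 genes (median -2.55, 32.2% of all genes lower), Kif23 the most (-5.45 ± 0.21, adjusted p = 2.2e-11), while Cdk1 was not called (0.37 ± 0.18, adjusted p = 0.0678). PIP day 9 cells were lower than cDC2 for 30 (median -3.73, 26.7% of all genes lower), Mki67 the most (-6.19 ± 0.18, adjusted p = 7.06e-11), with Cenpa higher (1.13 ± 0.12, 29.3% of all genes higher). C9a.SII day 9 cells, set against pDC, had 4 genes higher (Anln, Ube2c, Top2a and Kif20a) and Ect2 lower of 27 tested (median 0.29, 18.4% of all genes higher and 19.8% lower). Without pDC replicate 1, 13 were higher, and the median over the genes tested both ways was 1.12. Between hCD2.SII day 9 cells and pDC none of 26 was called (15.2% of all genes higher and 17.7% lower), 1 at an unadjusted p under 0.05 and 1 by DESeq2, with a median of 0.09 where the median of all genes tested was -0.24.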

How the data were processed

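RNA of 5000 sorted cells per library was amplified by 13 to 14 PCR cycles with a stranded total RNA kit, per the labels' protocols. The values are gene counts as deposited by the authors; the submitters' processing notes name STAR 2.7.9a, Salmon 1.10.1 and mm10, while the counting tool, the annotation and how strand was treated are not given in the sources used here. Of 57010 identifiers, 4981 have no gene name and held 5.98 to 32.1% of the counts (median 13.2%). 17 of the 32 genes overlap another annotated gene, 8 of them a protein-coding one, so their counts could be shared.

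The deposited counts were tested with edgeR 4.0.16 (R 4.3.3; TMM scaling, low-count filter by group, quasi-likelihood F test) on the groups compared, with Benjamini-Hochberg adjustment over all genes tested. Genes were called at 2-fold or more with an adjusted p below 0.05. CPM is the count per 1000000 of the library total, and the mean log2 CPM of the genes used a prior count of 2. DESeq2 1.42.0, other scaling, no filter, a replicate block, 1 fit over all 41 groups and leaving out each library were alternatives. The genes, lists and tests were chosen with earlier results of these data known, and 9 comparisons (reporter gate against MEFs, gate by line, spleen against C9a.MEF) after these values were seen. Any of the 32 genes could be named; the rule took the 2 largest and 2 smallest called changes of a comparison, genes called against the direction of most, those not called where 5 or fewer, and per library Mki67, Top2a, Cdk1, Ccnb1, Plk1, Aurkb, Bub1 and Kif11. In counts simulated for PIB day 9 against MEFs (15406 genes), 91.0% of 4-fold and 41.8% of 2-fold changes were called, and 0.0131% of unchanged genes. For hCD2.SII day 9 against MEFs (16089 genes) these were 75.3, 22.7 and 0.0566%, and for cDC1 against cDC2 (15350 genes) 89.9, 36.6 and 0.0396%. A call needs an estimated change of at least 2-fold, which by itself limits the shares for true 2-fold changes and for unchanged genes. Each simulation changed 200 genes, while 1794 were called lower in the real PIB day 9 comparison, so its setting differs from the data. No 2 of the 266 pairs of libraries within a group agreed within sampling noise (lowest chi-square per degree of freedom 2.68). Deviations of same-numbered libraries correlated above 0.1 in every pair for PIB day 6 against day 3 (0.129 to 0.188) and hCD2.SII day 9 against MEFs (0.108 to 0.217), where the block moved neither count by over 1.5 times. The labels do not say what a number marks.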

Additional observations from a re-analysis of the deposited data

Results flagged for a closer look

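In 4 of the 33 groups of 4 or 5 libraries, 1 library's mean log2 CPM of the 32 genes lay far from the rest, where chance gives about 1 in 20. PIB day 3 CD45-gated replicate 4 was at 4.08, with a group median of 2.95. PIB day 9 tdTomato-gated replicate 2 was at 2.51, with a median of 1.03. hCD2.SII YFP-gated day 3 replicate 5 was at 4.12 (median 4.93) and day 6 replicate 4 at 1.56 (median 4.59). Both of these hCD2.SII libraries had leukocyte sums of 521 and 568 CPM, where the others of their groups had 178 to 205, and the part of this in their low mitotic level was not tested. Without hCD2.SII YFP-gated day 3 replicate 5 the gate difference was called for 26 genes. The effect of the gate under SII differed between the C9a and hCD2 lines by a test of the interaction, for 19 genes on day 3 and 18 on day 9. With 1 library left out these counts ran from 0 to 27 and from 8 to 29, and both comparisons were chosen after the values were seen. Cre driver, reporter and zygosity differ with the line and cannot be told apart from it.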

How the results depend on the processing

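Of the counts recomputed under another setting, 626 stayed within 1.5 times of the reported count and 87 moved. Of the values for single genes 21027 kept the call or stayed uncalled, 498 gained and 751 lost the call. Among genes called in either setting 0 turned in sign, and the sign of genes called in neither was not compared. The cause was not tested unless a library is named. With no low-count filter the counts were 16 for hCD2.SII day 9 against MEFs, 9, 16 and 23 from day 3 to 6 in PIP, C9a.SII and hCD2.SII, 1 and 13 for the day 9 gate in PIB and hCD2.SII, 4 for hCD2.SII against pDC, 26 for cDC1 against pDC, 1 each for PIB against PIP and C9a.SII on day 3, and 11 for gate by line on day 9. DESeq2's Wald test gave 15, 15 and 26 for the day 3 to 6 steps of PIP, C9a.SII and hCD2.SII, and 1 for the PIB day 9 gate and for hCD2.SII against pDC, where its size factors also gave 1 and moved the median of all genes from -0.24 to -0.11. The replicate block gave 0 for the day 3 to 6 steps of PIP and hCD2.SII, 5 for the hCD2.SII day 9 gate, 2 for hCD2.SII against pDC, 1 for PIP against C9a.SII on day 3 and 2 for PIB against PIP on day 9. In those comparisons the samples share only a number. One fit over all groups gave 3, 0, 4 and 19 from day 3 to 6 in PIB, PIP, C9a.SII and hCD2.SII. From day 6 to 9 it gave 0 in PIB and 1, a rise, in C9a.SII. Against pDC it gave 14 for C9a.SII, 9 for hCD2.SII and 30 for cDC1. It gave 1 each for PIP against PIB and C9a.SII on day 3, and 6 and 28 for gate by line on days 3 and 9. For hCD2.SII against pDC the calls went both ways. The block called 2 lower, while no filter called 4, DESeq2 1, its size factors 1 and the single fit 9 higher. With 1 library left out, 1 was lower without hCD2.SII replicate 1, and 1 higher without hCD2.SII replicate 2 or 3 or pDC replicate 1.

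Leaving out 1 library gave 0 to 6 (PIP) and 0 to 23 (hCD2.SII) from day 3 to 6, 4 to 18 for PIB from day 6 to 9, 12 to 31 for the hCD2.SII day 9 gate, 4 to 14 and 0 to 1 for C9a.SII and hCD2.SII against pDC, 11 to 30 for cDC1 against pDC, 1 to 2 for PIB against PIP on day 3 (1 without PIB replicate 2), 0 to 1 for PIB against C9a.SII on day 3 (1 without C9a.SII replicate 2), 1 to 1 for PIP against C9a.SII on day 3, 1 to 2 for PIB against PIP on day 9 (2 without PIB replicate 5 or PIP replicate 4), 9 to 15 for PIP against C9a.SII on day 9, 0 to 24 for SII by line on day 9, and 0 to 27 and 8 to 29 for gate by line on days 3 and 9. On the TMM scale the median level against MEFs was 49.1% in cDC1, 12.4% in PIP day 9 CD45-gated and 11.95% in double positive cells. With a prior count of 0.5 the mean log2 CPM of these PIP cells lay at -2.95 and -3.04 against MEFs. On the gene's own strand alone, the CHR core lay in 21.2% of all windows, CCAAT in 58.6% of the genes' and 21.1% of all, both in 48.3% and 4.74%, and the E2F core in 3.23% of all. Depth limits the lowest genes, since 3 counts are worth up to 2.62 CPM.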
